A study of Arabidopsis thaliana with 48 samples.

Results

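Flavonol synthesis was followed through 10 genes, picked by name and located by locus tag in both FPKM tables, each of which lists 33977 genes. They comprised 5 early pathway genes (TT4, TT5, CHIL, F3H and FLS1), 3 R2R3-MYB regulators (MYB12, MYB11 and MYB111) and 2 glycosyltransferases (UGT78D1 and UGT89C1), and all 10 were present in leaves and in roots. RNA had been sequenced from leaves and roots of Arabidopsis thaliana seedlings of 3 genotypes, grown for 11 days either in spaceflight (FT), in the Veggie plant growth unit on the International Space Station, or as ground control (GC), in the same hardware inside an environment simulator chamber at Kennedy Space Center. The genotypes were wild-type Col-0 and 2 mutants in that background, each represented by 1 allele: elp2-5, in a subunit of the Elongator complex that assists RNA polymerase II, and met1-7, in the methyltransferase that maintains CG methylation. Seedlings of every group grew on sucrose-containing Phytagel plates under constant light, were fixed in RNAlater and dissected after thawing. With 4 replicates for every combination of genotype, organ and environment, there were 12 groups and 48 libraries. The labels call each plate a replicate, whereas the study's methods say that plates were pooled, and p-values measure only the spread between these libraries. By those methods a spaceflight met1-7 plate was lost, so 1 met1-7 FT replicate came from 1 plate rather than 2. The labels do not say which.

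Flavonols are colourless phenylpropanoids that screen ultraviolet light, scavenge reactive oxygen and modulate auxin transport. Chalcone synthase condenses a coumaroyl and malonyl units, chalcone isomerase closes the ring, flavanone 3-hydroxylase makes dihydroflavonols, and flavonol synthase turns these into kaempferol and quercetin, which are then decorated with sugars. Dihydroflavonol reductase draws on the same dihydroflavonols to make anthocyanins. In Arabidopsis seedlings the flavonol genes are driven by a trio of related MYB proteins, of which MYB12 is known mainly from roots and MYB111 mainly from cotyledons and leaves, while late anthocyanin genes answer to complexes of PAP1 or PAP2 with TT8 and TTG1.

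The organ labels held in all 48 libraries. The summed FPKM (fragments scaled by transcript length and by library total) of 5 leaf markers was 21068 to 33528 in leaf libraries and 195 to 510.4 in root libraries, and that of 5 root markers was 0.55 to 4.07 in leaves and 219.6 to 423.9 in roots. ELP2 was at 3.24 to 3.99 FPKM in elp2-5 leaves against 7.38 to 9.13 in Col-0 leaves, and at 4.23 to 5.78 against 10.7 to 14.8 in roots. MET1 in met1-7 leaves, at 10.8 to 15.2 FPKM, overlapped the 12.7 to 14.7 of Col-0, so its transcript did not separate that genotype. FPKM hold no read counts and the absolute depth is unknown. The relative depth of the libraries, estimated from 145 leaf and 160 root genes seen at a single low level, was 0.862 to 1.17 for leaf libraries, where 1 is their geometric mean, and 0.871 to 1.17 for root libraries. Only genes whose nonzero values differed by less than 1.5-fold between libraries were used, so a wider spread of depth could have been missed. As RNA came from whole organs, fewer cells that express a gene cannot be told apart from less of its RNA per cell.

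The sequences just upstream of the annotated starts are shown because MYB12-type factors are known to act through MYB recognition elements and the bZIP factor HY5 through ACGT-containing elements. Capitals mark the recognition element, searched as the form ACCTACC, the form ACCTAAC, the form ACCAACC and the form ACCAAAC, as well as the palindromic core ACGT, on either strand, in TAIR10.1 sequence from RefSeq. Each stretch is written 5′ to 3′ on the strand of its gene.
CHIL: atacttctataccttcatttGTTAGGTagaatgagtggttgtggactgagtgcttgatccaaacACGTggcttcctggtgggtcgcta
FLS1: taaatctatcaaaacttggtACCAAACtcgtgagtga
UGT89C1: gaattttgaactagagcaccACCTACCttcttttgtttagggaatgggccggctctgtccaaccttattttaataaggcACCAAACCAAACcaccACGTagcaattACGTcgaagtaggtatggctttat
F3H: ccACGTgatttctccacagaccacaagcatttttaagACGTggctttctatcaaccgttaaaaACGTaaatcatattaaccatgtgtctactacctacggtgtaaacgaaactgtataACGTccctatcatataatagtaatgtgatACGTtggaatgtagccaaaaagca
TT4: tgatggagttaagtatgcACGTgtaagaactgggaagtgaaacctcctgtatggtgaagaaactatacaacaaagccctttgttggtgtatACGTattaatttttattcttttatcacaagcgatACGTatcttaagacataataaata
MYB12: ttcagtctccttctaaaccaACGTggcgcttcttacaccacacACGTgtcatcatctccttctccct
MYB111: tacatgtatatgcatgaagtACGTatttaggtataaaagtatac

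They lie at chr5:1563156-1563243 (plus strand) for CHIL, chr5:2803796-2803832 (plus) for FLS1, chr1:1821978-1822107 (minus) for UGT89C1, chr3:19024942-19025112 (plus) for F3H, chr5:4488226-4488374 (plus) for TT4, chr2:19476166-19476232 (plus) for MYB12 and chr5:20001623-20001666 (minus) for MYB111. In the window from 250 bases before to 50 bases after the start, a recognition element form was found in 3 of the 10 genes: CHIL, FLS1 and UGT89C1. UGT89C1 had 3 matches, of which a pair overlap. An ACGT core was found in 9 genes, UGT78D1 being the one without, and in TT5 and FLS1 it lay only after the start. F3H had 5 cores. The extended G-box CACGTG, which contains the core, was present in 5 genes: TT4, TT5, CHIL, F3H and MYB12. Of all 27438 windows of the same length, 16.28% held a recognition element form, 49.95% an ACGT core, 7.68% a G-box and 8.35% both of the first pair. These matches describe letters only.

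Each gene was tested with limma on log2(FPKM + 0.5), and "called" means an adjusted p under 0.05 by Benjamini-Hochberg over all genes tested in that comparison, 19877 in leaves and 21000 in roots. In leaves all 10 genes entered the test. TT4, TT5, CHIL, F3H, FLS1, MYB111, UGT78D1 and UGT89C1 were at or over 1 FPKM in all 24 leaf libraries, whereas MYB12 reached it in 5 and MYB11 in 8, all of them elp2-5 libraries, so these 2 entered only through the genotype in which they were high. In roots 8 genes were tested, and MYB11 and MYB111 were below the filter.

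In leaves the mutation in ELP2 was accompanied by the widest change. In elp2-5 against Col-0 in GC, 7 of the 8 genes expressed throughout were called higher, where 37.6% of all genes were called higher and 14.1% lower, and in FT all 8 were, against 35.5% higher and 14.9% lower. The median log2 difference of these 8 genes was 1.69 in GC and 1.91 in FT, where the median of all genes was 0.14 and 0.12. MYB12 and MYB11 were called higher in both environments as well. In met1-7 against Col-0, 0 of 10 genes were called in GC (7.4% of all genes higher, 8.17% lower) and 0 in FT (3.7% higher, 3.74% lower) by limma. An unadjusted p under 0.05 was reached by 2 of the 10 in GC and 0 in FT, and by 5940 and 4370 of all 19877 genes tested. The background shares depend on the scaling. With median-ratio scaling, the all-gene median of elp2-5 against Col-0 in GC leaves moved from 0.14 to 0.01, a shift of over 0.1, and 4450 genes were called higher and 4621 lower in place of 7465 and 2798. In FT the split was 4475 and 4779 in place of 7055 and 2965. With that scaling the same 7 of the 8 genes expressed throughout were called higher in GC, and all 8 were in FT. MYB12 and MYB11 were called as well, but they had passed the filter only through elp2-5 libraries.

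Between FT and GC the leaf calls were in the other direction. In met1-7 leaves 6 genes were called lower in FT (3.38% of all genes lower, 9.53% higher), in Col-0 leaves 1 was (3.15% lower, 8.71% higher), and in elp2-5 leaves 0 were (0.156% lower, 0.644% higher), with 0 of 10 at an unadjusted p under 0.05. The median log2 difference of the 8 genes expressed throughout was -0.79 in met1-7, where that of all genes was 0.07. It was -0.56 in Col-0 against 0.05 and -0.23 in elp2-5 against 0.03. The difference between these responses was itself tested. In the contrast of the elp2-5 flight response with that of Col-0, 0 of 10 genes were called (0.0151% of all genes), and in that of met1-7 with Col-0, 0 of 10 (0% of all genes), with 0 genes at an unadjusted p under 0.05 in either. So the genotypes were not shown to differ in their flavonol response to flight. With median-ratio scaling, Col-0 leaves had 1115 genes higher and 1360 lower in place of 1732 and 627, and met1-7 leaves 866 and 1269 in place of 1895 and 672. In elp2-5 leaves the split was 103 and 84 in place of 128 and 31.

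In roots fewer of the genes differed. In FT against GC, 3 of 8 genes were called lower in elp2-5 (3.21% of all genes lower, 3.57% higher), 0 in Col-0 (0.81% lower, 2.09% higher) and 0 in met1-7 (0.333% lower, 0.852% higher). An unadjusted p under 0.05 was reached by 2 of the 8 in Col-0 and by 3 in met1-7. Of all 21000 genes tested, it was reached by 4007 in Col-0 and by 3801 in met1-7. In elp2-5 against Col-0, 1 gene was called higher in GC (18.9% of all genes higher, 19.8% lower), and in FT 2 were called higher and 1 lower (15.6% higher, 21.2% lower), counts too small to be read against those shares. In met1-7 against Col-0, 0 genes were called in GC (3.59% higher, 4.01% lower) and in FT (2.67% higher, 2.76% lower), and 0 had an unadjusted p under 0.05. The flight response of elp2-5 against that of Col-0 gave 0 calls (0% of all genes), with 1 gene at an unadjusted p under 0.05 (2179 of all 21000), and that of met1-7 gave 0 (0% of all genes). The split of root calls between FT and GC moved with median-ratio scaling to 580 higher and 870 lower from 750 and 674 in elp2-5, to 164 and 321 from 438 and 170 in Col-0, and to 118 and 237 from 179 and 70 in met1-7.

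**Figure D1:**
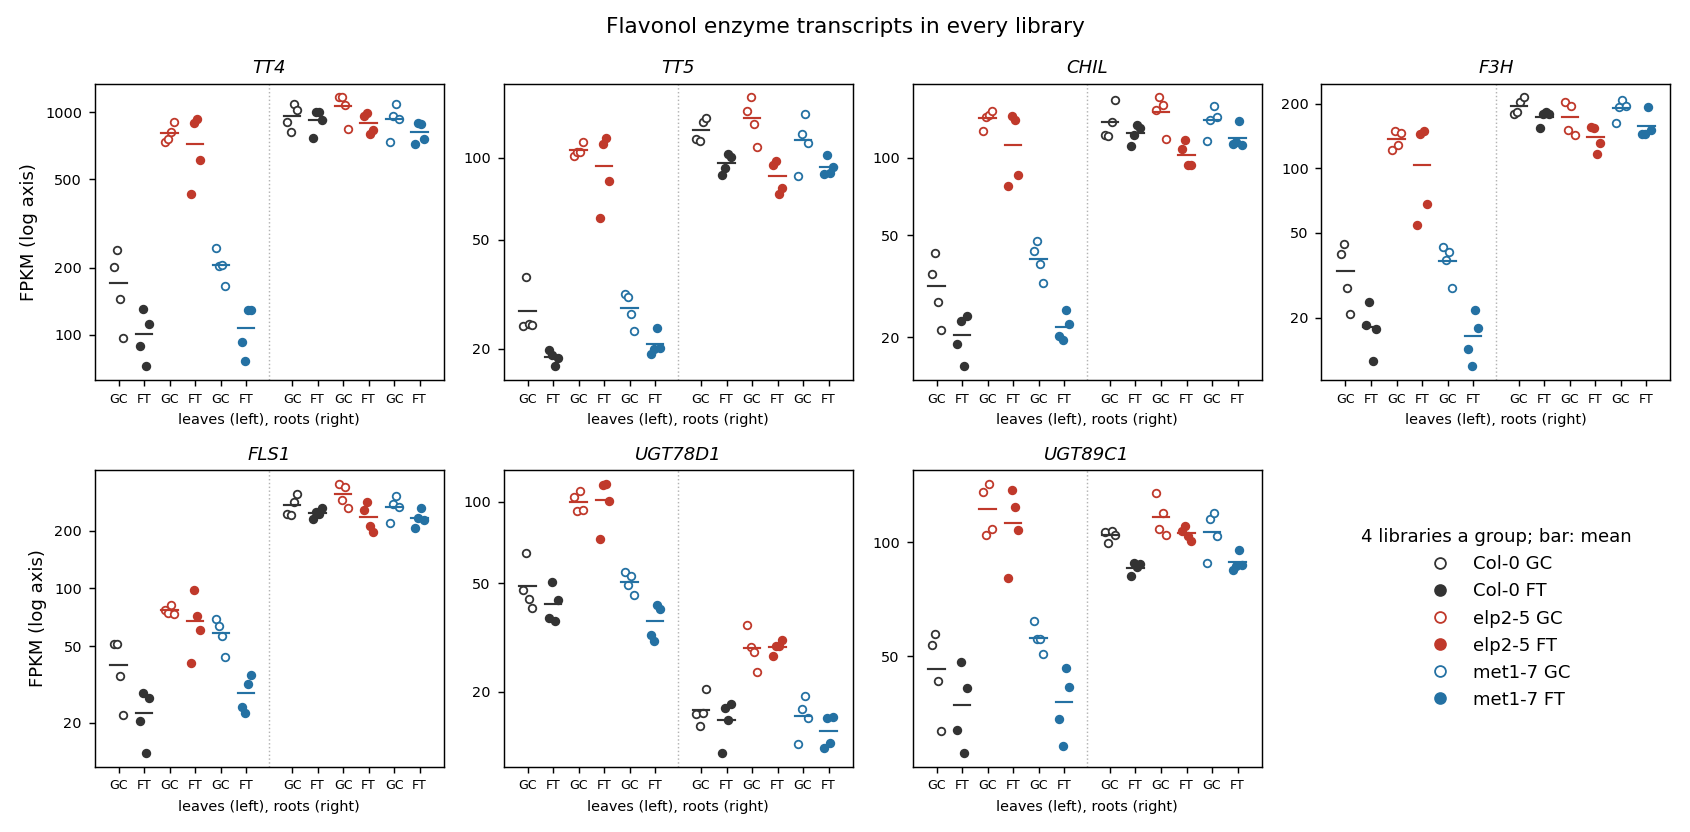
FPKM on a log axis for TT4, TT5, CHIL, F3H, FLS1, UGT78D1 and UGT89C1 in every library, leaves to the left and roots to the right of the dotted line, with open points for GC, filled points for FT and a bar at the mean of 4 libraries. In leaves the elp2-5 libraries stand above those of Col-0 and met1-7 for every gene but FLS1, TT4 at 430.3 to 934 against 71.9 to 246, whereas in roots the genotypes overlap except for UGT78D1.

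TT4 (AT5G13930, chr5:4488476-4490264, plus strand, 2 exons) encodes chalcone synthase, the entry enzyme of the pathway. Its leaf FPKM in Col-0 was 201, 241, 144 and 96.2 in GC and 89.0, 129.9, 71.9 and 111 in FT. The met1-7 leaf libraries were at 246, 203, 205 and 166 in GC and 92.4, 75.7, 129.4 and 129 in FT. In elp2-5 leaves it was 738, 759, 813 and 906 in GC and 430.3, 897, 934 and 608 in FT. Every elp2-5 leaf library thus lay above every library of the other genotypes, and FT lay below GC without overlap in met1-7 but with overlap in Col-0, through GC replicate 4, and in elp2-5. TT4 was 4.97-fold higher in elp2-5 than in Col-0 in GC leaves (log2 fold change 2.31, SE 0.27, n = 4 per group, limma adjusted p = 1.3e-06). In FT leaves it was 6.95-fold higher (log2 2.80, SE 0.27, limma adjusted p = 1.5e-07). In met1-7 leaves TT4 fell by 0.96 on the log2 scale in FT (SE 0.27, limma adjusted p = 0.026). In roots TT4 ran from 721 to 1168 FPKM over all 24 libraries, and it was called in no root comparison.

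TT5 (AT3G55120, chr3:20430059-20431597, minus strand, 4 exons) encodes chalcone isomerase. In Col-0 leaves it was at 24.1, 36.5, 24.6 and 24.5 FPKM in GC and at 19.8, 19.0, 17.2 and 18.5 in FT. The 2 groups did not overlap, and TT5 was the 1 gene called between FT and GC in Col-0 leaves, where it fell by 0.53 on the log2 scale (SE 0.16, limma adjusted p = 0.041). That call held in only 2 of the 8 fits with 1 Col-0 library left out, those without FT replicate 1 or GC replicate 4, and it was lost with no filter on low values and with the compared libraries alone. In elp2-5 leaves TT5 ran from 102 to 114 FPKM in GC and from 60.02 to 118 in FT, 3.88-fold and 4.73-fold above Col-0 (log2 1.96, SE 0.16, limma adjusted p = 1.6e-08, and log2 2.24, SE 0.16, adjusted p = 2.8e-09). In elp2-5 roots it was at 149, 167, 132 and 109.6 FPKM in GC and at 94.1, 96.8, 73.8 and 77.2 in FT. These groups did not overlap, and TT5 fell by 0.69 on the log2 scale (SE 0.13, limma adjusted p = 0.0074), a call that held in all 8 fits with 1 library left out. Root levels in Col-0 were 115 to 139 FPKM in GC and 86.1 to 103 in FT, also without overlap, but the difference was not called (limma adjusted p = 0.10).

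CHIL (AT5G05270, chr5:1563286-1565324, plus strand, 5 exons) encodes a chalcone isomerase-like protein that is not itself the isomerase but raises flavonoid yield. In met1-7 leaves it was at 43.5, 47.4, 38.7 and 32.5 FPKM in GC and at 20.2, 19.6, 25.5 and 22.6 in FT. The FT libraries all lay below the GC libraries, and CHIL fell by 0.86 on the log2 scale (SE 0.21, limma adjusted p = 0.011), the 1 gene called in all 8 fits that left out a met1-7 library. In Col-0 leaves the ranges 21.4 to 42.5 in GC and 15.4 to 24.3 in FT overlapped. Over Col-0, CHIL was 4.58-fold higher in elp2-5 GC leaves, at 127 to 151 FPKM (log2 2.19, SE 0.21, limma adjusted p = 9.8e-08), and 5.26-fold higher in FT leaves, at 77.5 to 145 (log2 2.39, SE 0.21, adjusted p = 3.4e-08). In elp2-5 roots CHIL was at 154, 172, 159.9 and 119 FPKM in GC and at 108, 117, 93.4 and 93.8 in FT, a fall of 0.54 on the log2 scale (SE 0.12, limma adjusted p = 0.014) that was lost without FT replicate 4 or GC replicate 2. With the elp2-5 root libraries fitted alone, 0 of the 3 root calls of that genotype held.

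F3H (AT3G51240, chr3:19025192-19026872, plus strand, 3 exons) encodes flavanone 3-hydroxylase. In met1-7 leaves it was at 43.0, 37.2, 40.7 and 27.5 FPKM in GC and at 14.2, 11.9, 21.8 and 17.9 in FT. The groups were separate, and F3H fell by 1.16 on the log2 scale (SE 0.30, limma adjusted p = 0.016), the only flavonol gene besides FLS1 with a called FT difference in leaves of more than 1. In Col-0 leaves it was at 39.7, 44.5, 27.6 and 20.9 in GC and at 18.5, 23.7, 12.6 and 17.8 in FT, with GC replicate 4 inside the FT range. In elp2-5 leaves F3H was at 122, 149, 128 and 147 in GC and at 54.0, 145, 149.8 and 68.0 in FT. The FT libraries fell into a high pair and a low pair, replicates 1 and 4 being low, as they were for TT4, TT5 and CHIL. Over Col-0 it was 4.23-fold higher in GC (log2 2.08, SE 0.30, limma adjusted p = 1.3e-05) and 5.22-fold higher in FT (log2 2.38, SE 0.30, adjusted p = 3.1e-06). In roots F3H was at 117 to 157 FPKM in elp2-5 FT and at 154 to 184 in Col-0 FT, overlapping, and it fell by 0.33 on the log2 scale (SE 0.12, limma adjusted p = 0.040), a call that held in 3 of 8 fits with 1 library left out and that was lost with median-ratio scaling and with no filter. A lncRNA gene, AT3G51238, overlaps F3H on the opposite strand over 1588 bp. It was at 0.33 to 5.52 FPKM in leaves and 3.32 to 9.53 in roots. The library kit keeps strand, but a strand setting for the counting is not given in the sources used here, so reads of the pair may not be told apart.

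FLS1 (AT5G08640, chr5:2803833-2805606, plus strand, 3 exons) encodes the main flavonol synthase of Arabidopsis. Leaf FPKM in met1-7 was 69.4, 63.7, 56.5 and 44.0 in GC and 24.3, 22.5, 32.01 and 35.4 in FT. The groups did not overlap, and FLS1 fell by 1.02 on the log2 scale (SE 0.28, limma adjusted p = 0.020). In Col-0 leaves it was at 51.3, 51.4, 35.1 and 22.0 in GC and at 20.3, 28.5, 13.9 and 26.9 in FT, again overlapping through GC replicate 4. In elp2-5 leaves FLS1 was at 77.5, 74.6, 81.7 and 73.9 in GC and at 40.8, 98.0, 71.6 and 60.5 in FT. Its rise over Col-0 was smaller than that of the steps before it, 2.02-fold in GC (log2 1.01, SE 0.28, limma adjusted p = 0.0047) and 2.95-fold in FT (log2 1.56, SE 0.28, adjusted p = 0.00012). That difference between genes was not tested. The ratio of FLS1 to TT4 FPKM within a library was 0.193 to 0.255 in Col-0 leaves, 0.0766 to 0.109 in elp2-5 leaves and 0.247 to 0.314 in met1-7 leaves, while in roots it was 0.236 to 0.315 over the 3 genotypes. A ratio within a library does not depend on a scaling factor applied to that library as a whole, though quantile normalization can change it. In elp2-5 roots FLS1 was at 350.4, 289.6, 339 and 261 in GC and at 257, 282, 211 and 196 in FT, a fall of 0.40 on the log2 scale (SE 0.12, limma adjusted p = 0.048) with overlapping groups, held in 2 of 8 fits with 1 library left out.

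Among fits with 1 Col-0 library left out, the count of leaf calls changed most without 1 ground library. GC replicate 4 was the lowest of its group for TT4, CHIL, F3H, FLS1, MYB12, MYB111, UGT78D1 and UGT89C1. HY5, a light-signaling bZIP factor named here after its values were seen, was at 14.5 FPKM in it and at 23.4 to 25.1 in the other GC libraries. A link between HY5 and the flavonol genes in this library was not tested. Without GC replicate 4, 5 genes were called lower in FT in Col-0 leaves, TT4 by -0.96 (limma adjusted p = 0.022), TT5 by -0.57 (limma adjusted p = 0.040), CHIL by -0.76 (limma adjusted p = 0.022), F3H by -1.02 (limma adjusted p = 0.036) and FLS1 by -1.05 (limma adjusted p = 0.014), all on the log2 scale. Since GC replicate 4 was the lowest of its group for TT4, CHIL, F3H and FLS1, leaving it out widened their fall by construction. These added calls are thus no separate support for a fall in FT. Without any 1 of the other Col-0 libraries the count was 0 or 1, and with median-ratio scaling it was 3 (TT5, CHIL and FLS1). In met1-7 leaves the 6 calls became 1 without FT replicate 2, 2 without FT replicate 1 or GC replicate 1 or 2, and 4 to 6 without any other. With median-ratio scaling or the met1-7 leaf libraries alone, TT5 and UGT89C1 were called lower as well, and with no filter on low values 4 genes were. As a sum, the 5 leaf markers moved too. Their summed FPKM was 30185 to 33424 in Col-0 GC and 26029 to 29992 in Col-0 FT. It was 30676 to 33528 in met1-7 GC and 27318 to 29987 in met1-7 FT, and 23516 to 26658 in elp2-5 GC and 21068 to 25415 in elp2-5 FT. RBCS1A, the largest part of the sum, was at 18399 to 20219 in Col-0 GC leaves and 14371 to 16815 in Col-0 FT leaves. Not every marker fell. In Col-0 leaves LHCB2.1 was at 1238 to 1464 in GC and 1392 to 1788 in FT. PSAD-1 was at 1562 to 1612 in GC and 1422 to 1675 in FT, both overlapping. The 5 root markers summed to 0.55 to 1.68 in Col-0 leaves and 1.61 to 4.07 in elp2-5 leaves. Of them only WOX5 was separate, at 0 to 0.44 in Col-0 leaves and 1.01 to 2.97 in elp2-5 leaves. CASP1, CASP4, EXPA7 and COBL9 overlapped between the 2 genotypes. The part of these shifts in the flavonol differences was not tested.

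**Figure D2:**
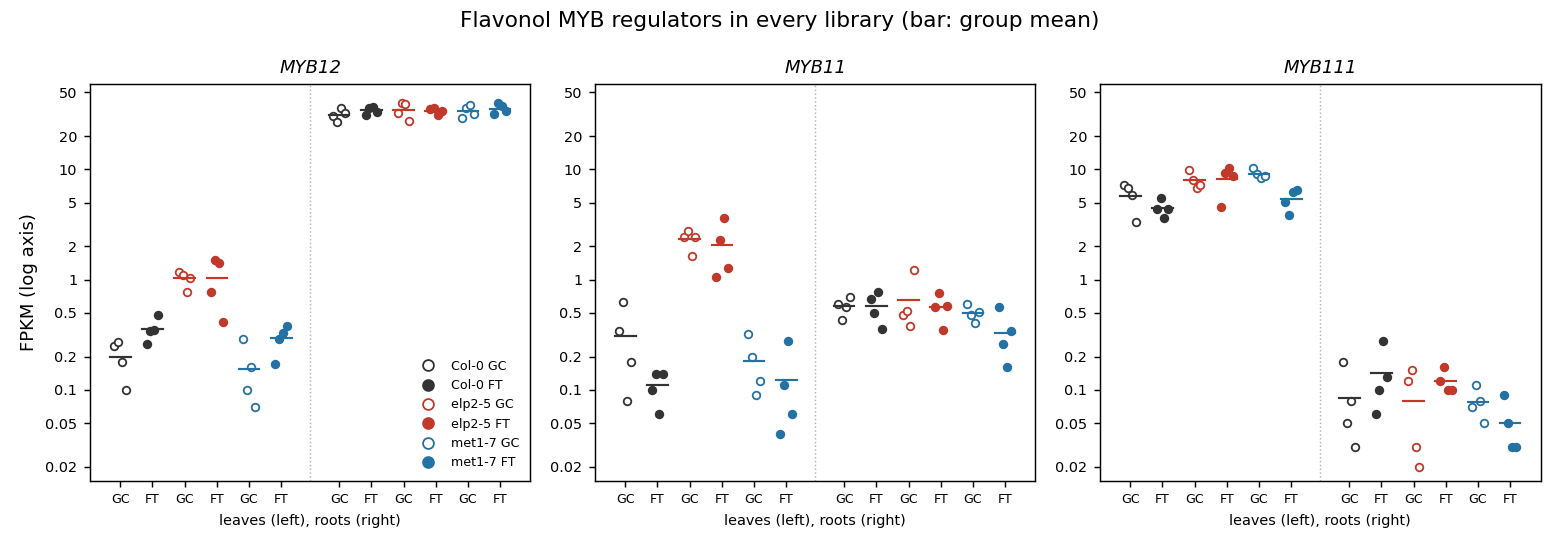
FPKM on a log axis of MYB12, MYB11 and MYB111 in every library, leaves left and roots right of the dotted line, open points for GC, filled for FT and a bar at the group mean. MYB12 was at 27.0 to 39.9 in roots and 0.07 to 1.52 in leaves, MYB111 at 3.3 to 10.4 in leaves and 0.02 to 0.28 in roots, and MYB11 was highest in elp2-5 leaves.

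The 3 regulators divided the organs between them. MYB12 (AT2G47460, chr2:19476326-19479597, plus strand) ran from 27.0 to 39.9 FPKM in the 24 root libraries and from 0.07 to 1.52 in the 24 leaf libraries. MYB111 (AT5G49330, chr5:19998823-20001572, minus strand) was at 3.3 to 10.4 in leaf libraries and at 0.02 to 0.28 in root libraries. MYB11 (AT3G62610, chr3:23154630-23156585, plus strand) stayed at or below 1.22 in roots and 0.62 in Col-0 and met1-7 leaves. The ranges of MYB12 and of MYB111 in the 2 organs are far apart, but the organs came in separate tables and were not tested against each other. The 6 root group means of MYB12 lay between 31.4 and 35.7 FPKM, a narrower span than that of the replicates in any of the 6 groups, and MYB12 was called in no root comparison.

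In elp2-5 leaves MYB11 stood out. It was at 2.44, 2.79, 1.64 and 2.42 FPKM in GC and at 1.06, 2.27, 3.62 and 1.27 in FT, where Col-0 was at 0.34, 0.62, 0.08 and 0.18 in GC and at 0.1, 0.14, 0.06 and 0.14 in FT. The genotypes did not overlap in either environment. On the log2(FPKM + 0.5) scale, which understates changes of low genes, MYB11 was higher by 1.84 in GC (SE 0.26, limma adjusted p = 6.3e-06) and by 1.96 in FT (SE 0.26, adjusted p = 3.1e-06). MYB12 was at 1.17, 1.11, 0.78 and 1.04 in elp2-5 GC leaves and at 0.1 to 0.27 in Col-0 GC leaves, a log2 difference of 1.12 (SE 0.21, limma adjusted p = 0.00017). In FT its elp2-5 values of 0.77, 1.52, 1.41 and 0.41 overlapped the Col-0 values of 0.26 to 0.48, and the log2 difference was 0.77 (SE 0.21, limma adjusted p = 0.0048), which was not called with quantile normalization. With the compared libraries alone MYB12 was below the filter in both environments. Since both genes passed the filter through elp2-5 libraries, these calls are partly set by the filter. Without it MYB11 and MYB12 were still called in both environments. AT3G62615, a gene on the opposite strand that overlaps MYB11 over 495 bp, was listed at 0 in all 48 libraries.

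MYB111 had the highest FPKM of the 3 in leaves. In met1-7 leaves it was at 10.4, 9.12, 8.39 and 8.65 FPKM in GC and at 5.06, 3.88, 6.18 and 6.56 in FT. The groups were separate, and MYB111 fell by 0.72 on the log2 scale in FT (SE 0.23, limma adjusted p = 0.039). That call held in 2 of 8 fits with 1 library left out. In Col-0 leaves it was at 7.21, 6.79, 5.82 and 3.3 in GC and at 4.4, 5.54, 3.62 and 4.35 in FT, and in elp2-5 leaves at 6.83 to 9.97 in GC and 4.52 to 10.4 in FT, both overlapping. Between elp2-5 and Col-0 leaves it was called in FT, with a log2 difference of 0.76 (SE 0.23, limma adjusted p = 0.0081) and overlapping groups, and not in GC (adjusted p = 0.084). The met1-7 GC libraries were all above those of Col-0, with a log2 difference that just missed the threshold (limma adjusted p = 0.0503) and passed it with median-ratio scaling, with a pseudocount of 1, or without Col-0 GC replicate 1 or 2. The ratio of MYB111 to MYB12 FPKM was 25.1 to 33.0 in Col-0 GC leaves and 9.06 to 16.9 in Col-0 FT leaves. It was 7.01 to 8.76 in elp2-5 GC leaves and 5.87 to 21.1 in elp2-5 FT leaves, the latter overlapping Col-0 FT. In met1-7 leaves it was 35.9 to 124 in GC and 13.4 to 29.8 in FT. These ratios rest on MYB12 values of at most 1.52 FPKM.

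Glycosylation genes followed the pathway in elp2-5 leaves. UGT78D1 (AT1G30530, chr1:10814612-10816615, plus strand, 2 exons) encodes the flavonol 3-O-rhamnosyltransferase. In leaves it was at 47.3, 64.6, 43.7 and 40.7 FPKM in Col-0 GC and at 104, 92.1, 109.6 and 93.4 in elp2-5 GC. In FT it was at 37.4, 50.8, 36.5 and 43.3 in Col-0 and at 73.1, 115, 116 and 101 in elp2-5. The genotypes did not overlap, and UGT78D1 was 2.05-fold higher in GC (log2 1.04, SE 0.15, limma adjusted p = 1.2e-05) and 2.38-fold higher in FT (log2 1.25, SE 0.15, adjusted p = 1.4e-06). In met1-7 leaves it fell from 45.3 to 55.0 in GC to 30.8 to 41.6 in FT, by 0.49 on the log2 scale (SE 0.15, limma adjusted p = 0.038), a call that held in 3 of 8 fits with 1 library left out.

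UGT78D1 was the 1 gene of the 10 that was also higher in elp2-5 roots in both environments. Root FPKM was 16.5, 14.9, 16.7 and 20.5 in Col-0 GC and 35.1, 29.2, 28.0 and 23.6 in elp2-5 GC. In FT it was 11.9, 17.3, 15.7 and 18.02 in Col-0 and 27.0, 29.4, 29.5 and 31.0 in elp2-5. All 8 elp2-5 root libraries were above all 16 of Col-0 and met1-7, and the difference was 1.66-fold in GC (log2 0.73, SE 0.14, limma adjusted p = 0.00029) and 1.85-fold in FT (log2 0.89, SE 0.14, adjusted p = 3.8e-05). UGT78D1 is also the 1 gene of the 10 with neither motif in its promoter window, and, besides MYB111, the only one whose mean was higher in leaves than in roots in every genotype and environment, a comparison across separately made tables that was not tested.

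UGT89C1 (AT1G06000, chr1:1820308-1821894, minus strand, 1 exon) encodes the flavonol 7-O-rhamnosyltransferase. In leaves it was at 53.5, 57.1, 42.9 and 31.7 FPKM in Col-0 GC and at 135, 104, 142 and 108 in elp2-5 GC. In FT it was at 27.7 to 48.2 in Col-0 and 80.3 to 138 in elp2-5. UGT89C1 was 2.67-fold higher in elp2-5 in GC (log2 1.42, SE 0.20, limma adjusted p = 9.8e-06) and 2.996-fold higher in FT (log2 1.58, SE 0.20, adjusted p = 2.9e-06). In FT roots it was at 81.3, 88.0, 86.0 and 87.4 in Col-0 and at 107, 110.5, 104 and 101 in elp2-5, separate groups with a log2 difference of 0.30 (SE 0.08, limma adjusted p = 0.0058). UGT89C1 was also called between FT and GC in Col-0 roots with median-ratio scaling and in met1-7 roots without GC replicate 1. A lncRNA gene, AT1G06002, lies on the opposite strand over 1580 bp, with a transcript identical to UGT89C1 over 99.6% of its length. It was at 0 to 10.9 FPKM in Col-0 leaves, 11.4 to 22.2 in elp2-5 leaves and 4.14 to 25.4 in roots, so its leaf ranges did not overlap either, which was not tested, and reads may have been divided between the 2.

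**Figure D3:**
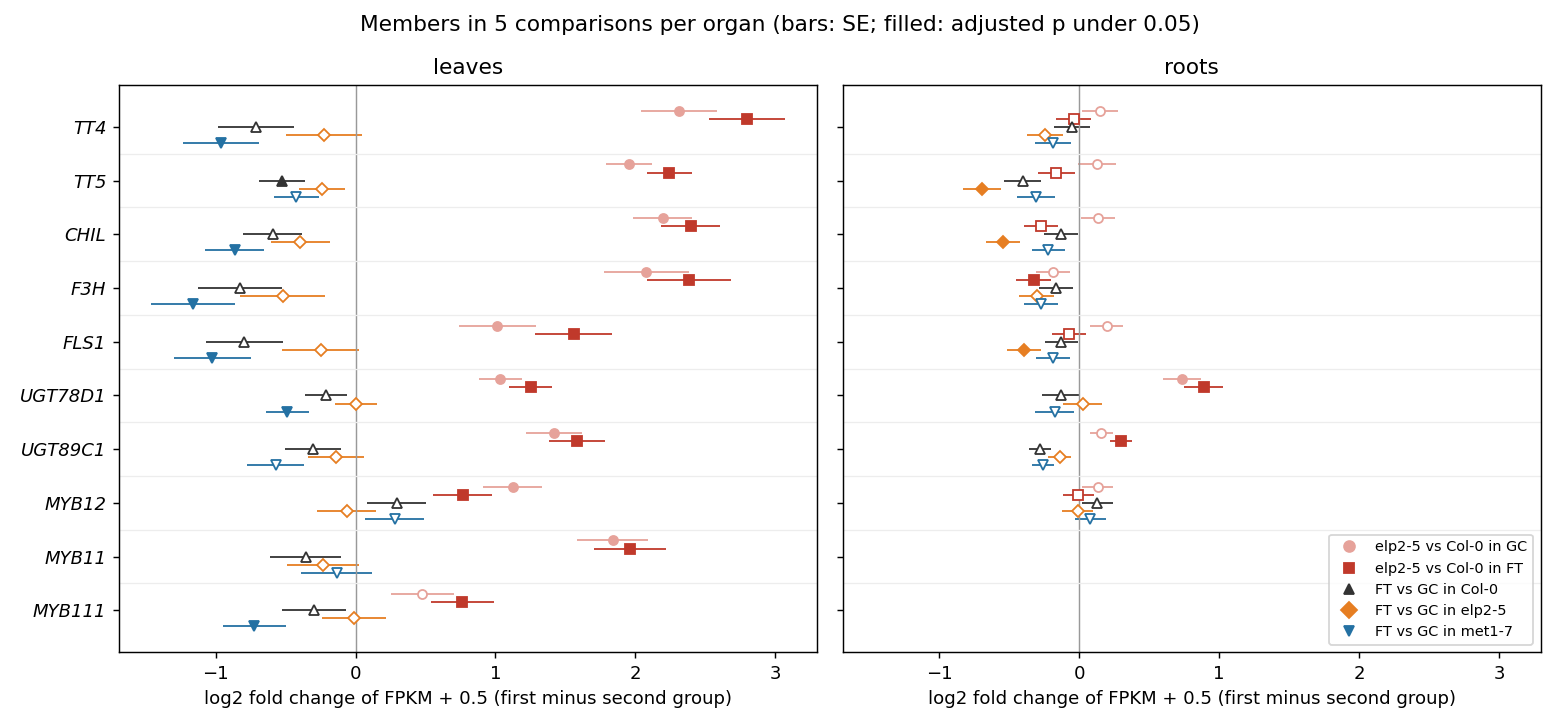
Log2 fold change of FPKM + 0.5 with its SE for each gene in leaves and roots, in elp2-5 against Col-0 in GC and FT and in FT against GC in each genotype, filled where the adjusted p was under 0.05, with MYB11 and MYB111 not tested in roots. In leaves the elp2-5 values run from 0.48 to 2.80 and the FT values of met1-7 reach -1.16, whereas in roots the largest values are those of UGT78D1 in elp2-5, 0.73 and 0.89.

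Steps before and beside the flavonol genes were taken from lists of other pathway genes. Of 5 upstream phenylpropanoid genes, 4 were called higher in elp2-5 leaves in GC and in FT, led by 4CL3, a coumarate-CoA ligase that feeds flavonoid synthesis (log2 1.25 in GC, limma adjusted p = 0.00027, and 1.82 in FT, adjusted p = 5.5e-06). The median over the 5 was 0.57 in GC and 0.54 in FT, and 37.6% of all genes were called higher in GC and 35.5% in FT. In met1-7 leaves 3 of the 5 were called lower in FT, where 3.38% of all genes were: 4CL3 by -0.95 (limma adjusted p = 0.015) and the phenylalanine ammonia-lyases PAL1 by -0.63 (adjusted p = 0.010) and PAL2 by -0.46 (adjusted p = 0.00081). In Col-0 leaves 4CL3 alone was called lower in FT (3.15% of all genes lower), by -0.79 (limma adjusted p = 0.039), a call that held in 3 of 8 fits with 1 library left out. In elp2-5 leaves 0 of the 5 were (0.156% of all genes lower). In elp2-5 roots PAL4 was lower than in Col-0, by -1.02 in GC (limma adjusted p = 5.5e-07) and -0.87 in FT (adjusted p = 3.8e-06), and C4H, the cinnamate 4-hydroxylase, was higher in GC, by 0.22 (limma adjusted p = 0.014, held in 6 of 8 fits with 1 library left out). All-gene shares in these root comparisons were 18.9% higher and 19.8% lower in GC and 15.6% higher and 21.2% lower in FT.

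Of 11 other flavonol enzymes, 8 were tested in each organ. In elp2-5 leaves 7 were called higher in GC and 5 in FT, with medians of 0.96 and 1.17, beside the all-gene shares of 37.6% and 35.5% called higher. The largest difference was that of TT7, the flavonoid 3′-hydroxylase that leads to quercetin and cyanidin, at 1.99 to 6.03 FPKM in Col-0 leaves and 20.03 to 61.3 in elp2-5 leaves (log2 3.45 in GC, limma adjusted p = 2.0e-08, and 3.41 in FT, adjusted p = 2.2e-08). UGT78D2, the flavonoid 3-O-glucosyltransferase, was higher by 1.82 and 1.73. In met1-7 leaves UGT78D2 and RHM1, a rhamnose synthase that supplies the rhamnosyltransferases, were lower in FT, by -0.64 (limma adjusted p = 0.020) and -0.62 (adjusted p = 0.025). In that comparison 3.38% of all genes were called lower. In elp2-5 roots FLS2 and FLS5, relatives of FLS1, and the methyltransferase OMT1 were higher than in Col-0 in both environments, FLS2 by 1.18 in GC and 0.86 in FT, and TT7 was not called. In GC the call of FLS5 held in 5 of 8 fits with 1 library left out, and FLS4, another relative, named after its values were seen, was lower by -0.40 (limma adjusted p = 0.012). All-gene shares in these root comparisons were 18.9% higher and 19.8% lower in GC and 15.6% higher and 21.2% lower in FT.

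The anthocyanin branch had larger log2 differences than the flavonol genes in elp2-5 leaves, which was not tested between the lists. All 5 tested genes of 6 were called higher in both environments, with medians of 4.00 in GC and 4.54 in FT. Of all genes, 37.6% were called higher in GC and 35.5% in FT. BAN, the anthocyanidin reductase of seed coats, was not tested. DFR, dihydroflavonol reductase, was at 4.61 to 26.0 FPKM in Col-0 leaves, 1.94 to 9.72 in met1-7 leaves and 201 to 449.6 in elp2-5 leaves (elp2-5 against Col-0, log2 4.63 in GC, limma adjusted p = 1.4e-08, and 5.04 in FT, adjusted p = 5.4e-09). The ratio of FLS1 to DFR FPKM within a library was 1.70 to 6.22 in Col-0 leaves, 3.98 to 11.6 in met1-7 leaves and 0.159 to 0.274 in elp2-5 leaves. The elp2-5 ratios were thus below those of every other leaf library in FT and in GC, as a description with no test. Between FT and GC, 0 of the 5 were called in leaves of any genotype. Of all genes, 8.71% were called higher and 3.15% lower in Col-0, 0.644% and 0.156% in elp2-5, and 9.53% and 3.38% in met1-7. An unadjusted p under 0.05, with a value below 0, was reached by 3 of the 5 in Col-0, by 0 in elp2-5 and by 5 in met1-7. Of all 19877 genes tested, 5520, 2875 and 5667 reached it, in either direction.

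The same branch was lower in met1-7 than in Col-0 for 1 gene in leaves and for more in roots. In leaves UGT79B1, an anthocyanin xylosyltransferase, was called lower in GC (-1.32, limma adjusted p = 0.0050) and in FT (-1.27, limma adjusted p = 0.012, held in 7 of 8 fits with 1 library left out), with medians of -0.63 and -0.85 over the 5 tested genes, and 8.17% of all genes were called lower in GC and 3.74% in FT. In GC roots all 5 were called lower, where 4.01% of all genes were, DFR by -3.03 (limma adjusted p = 0.028), LDOX, the anthocyanidin synthase, by -2.71 (adjusted p = 0.035) and UGT79B1 by -2.52 (adjusted p = 0.017). These calls held in 4, 3 and 4 of 8 fits with 1 library left out. In FT roots 1 was (2.76% of all genes lower), TT19, a glutathione S-transferase needed to store anthocyanins, by -1.71 (limma adjusted p = 0.048, held in 2 of 8 such fits). DFR was at 0.1 to 9.32 FPKM in met1-7 roots and 4.45 to 38.4 in Col-0 roots, while FLS1 in the same libraries was at 207 to 302 and 229 to 312. The flavonol genes thus had 0 calls in these 2 comparisons.

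**Figure D4:**
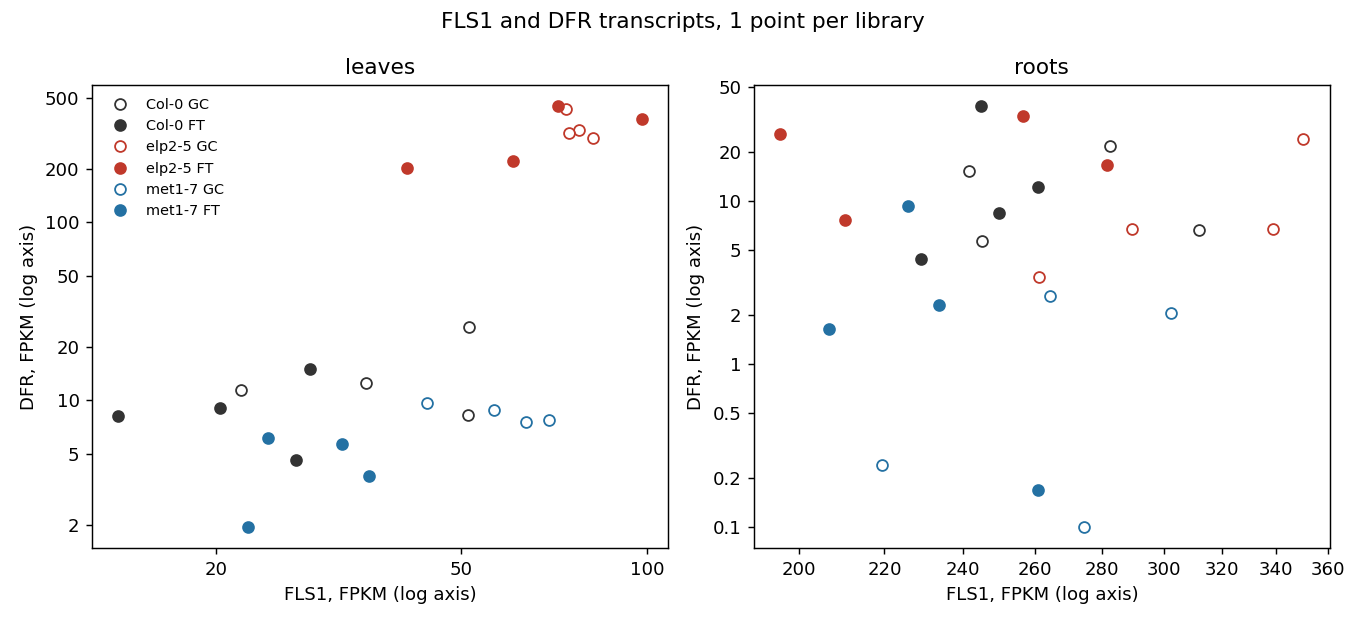
FPKM of FLS1 and DFR in each library on log axes, leaves at left and roots at right, open points for GC and filled for FT. In leaves the elp2-5 libraries lie apart, with DFR at 201 to 449.6 and FLS1 at 40.8 to 98.0, and in roots DFR spans 0.1 to 38.4 while FLS1 stays within 196 to 350.4.

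Among 10 other regulators, 6 were called higher and 1 lower in elp2-5 leaves in both environments, where 37.6% of all genes were called higher and 14.1% lower in GC and 35.5% and 14.9% in FT. The lower one, named after its values were seen, was MYBL2, a repressor of anthocyanin genes (-1.39 in GC and -1.35 in FT). The 3 with the largest values were PAP1 (log2 3.78 in GC and 3.81 in FT), TT8 (3.53 and 3.82) and PAP2 (2.60 and 2.81), the activators of late anthocyanin genes. PAP1 ran from 0.51 to 2.46 FPKM in Col-0 leaves and from 16.8 to 41.2 in elp2-5 leaves. In elp2-5 roots 3 of the 8 tested regulators were called higher and 1 lower than in Col-0 in GC, and 1 higher and 2 lower in FT. All-gene shares there were 18.9% higher and 19.8% lower in GC and 15.6% higher and 21.2% lower in FT, and the counts are too small to be read against them. MYBL2 was lower by -0.85 in GC (limma adjusted p = 0.016, held in 6 of 8 fits with 1 library left out) and by -1.72 in FT (limma adjusted p = 3.9e-05). WRKY23, a factor known to act on flavonol synthesis in roots, was higher by 0.63 and 0.74, HYH, the homolog of HY5, by 0.51 in GC, and HY5 was lower by -0.28 in FT (limma adjusted p = 0.026, held in 4 of 8 such fits). In FT against GC, HYH was called lower in met1-7 leaves (-0.69, limma adjusted p = 0.0026), at 70.7 to 91.8 FPKM in GC and 50.7 to 51.4 in FT, and in elp2-5 roots (-0.49, limma adjusted p = 0.033, held in 3 of 8 fits with 1 library left out). HY5 was not called between FT and GC in leaves or roots.

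Within groups the flavonol genes followed TT4 to different degrees. With each group mean taken out, the Pearson correlation with TT4 over the 24 leaf libraries was 0.94 for FLS1, 0.94 for F3H, 0.92 for CHIL, 0.90 for UGT89C1, 0.89 for UGT78D1, 0.85 for MYB111, 0.75 for TT5, 0.69 for MYB11 and 0.59 for MYB12. In roots MYB12 was among the nearest, with 0.88, beside TT5 with 0.88, CHIL with 0.85, FLS1 with 0.82, UGT89C1 with 0.74, F3H with 0.74 and UGT78D1 with 0.69. Ranked among all genes tested, the members ran from 2 (FLS1) to 343 (MYB12) in leaves and from 3 (TT5) to 69 (UGT78D1) in roots. Many genes outside the 10 were thus nearer to TT4 than the lowest-ranked members. The 5 genes outside the 10 most like TT4 in leaves were 4CL3 (0.94), RHM1 (0.91), UGT84A2 (0.89), PIP5K2 (0.89) and AT5G22020 (0.875). In roots they were KAT5 (0.90), UGT84A2 (0.89), LPR1 (0.84), AT5G22020 (0.83) and ELIP1 (0.83). UGT84A2, a sinapate glucosyltransferase, and AT5G22020 were in both sets. These values describe libraries that also differ in depth and in the sum of the leaf markers.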

How the data were processed

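RNA-seq libraries of leaves and roots were analysed from 1 table per organ. The authors deposited FPKM values made with Trimmomatic, STAR and RSEM on TAIR10, with FastQC and edgeR also named in their processing notes, and versions are not given in the sources used here. Each table lists 33977 genes, of which 32833 rows are named by locus tag, and no per-sample column was left unused. FPKM are not counts, so the edgeR count model of the study could not be run on them.

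Per organ, limma 3.58.1 in R 4.3.3 was fitted to log2(FPKM + 0.5) of genes at 1 FPKM or more in at least 4 of the 24 libraries, with 6 group means and a trended, robust prior. Two-sided p-values were adjusted by Benjamini-Hochberg over all genes tested, and an adjusted p under 0.05 was called. Both mutants were compared with the same Col-0 libraries, so those comparisons share controls. Alternatives were pseudocounts of 0.1 and 1, no filter, median-ratio scaling, quantile normalization, a replicate block, the compared libraries alone, and each library left out.

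All 10 genes are named, with a fold change where called. Of each list of other pathway genes, up to 3 called genes with the largest change per comparison may be named, and the 5 genes most correlated with TT4. The members, lists and motifs were chosen with earlier results of these data known. Upstream windows (250 bases before to 50 after the annotated start) and coordinates, 1-based, came from the TAIR10.1 assembly and its RefSeq annotation, in which all 10 genes were matched by locus tag. Gene copies were searched with BLAST 2.17.0 at 95% identity over 80% of the transcript. Summaries and plots used Python 3.11.15 with numpy 2.4.6, pandas 2.3.3 and matplotlib 3.10.9.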

Additional observations from a re-analysis of the deposited data

Results flagged for a closer look

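Of the 108 sets of 4 replicates that the genes tested in each organ gave, 4 held a library whose gap to the next was large for the range of its group, where chance gives about 1 in 20. TT5 was at 36.49 FPKM in Col-0 leaf GC replicate 2 and at 24.09 to 24.64 in the other 3 replicates, and without that library its difference between FT and GC was not called. F3H was at 193.1 FPKM in met1-7 root FT replicate 3 and at 144.0 to 150.43 in the others, and CHIL was at 138.63 in the same library and at 111.93 to 114.96 in the others. F3H was at 154.18 FPKM in Col-0 root FT replicate 1, where the others lay between 179.11 and 184.07. No flavonol gene had a called difference between genotypes in its response to flight.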

How the results depend on the processing

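Over 33 called differences of single genes, no alternative turned a direction. In the settings other than a left-out library, 215 of 229 values kept their call and 14 lost it, namely 5 with no filter, 4 with the compared libraries alone, 2 with quantile normalization, 2 with the replicate block and 1 with median-ratio scaling, and 0 with either pseudocount. With 1 library left out, 225 of 264 kept it and 39 lost it. In Col-0 leaves the count of genes called between FT and GC, 1, became 0 with no filter, 0 with the compared libraries alone and 3 with median-ratio scaling, and 0 to 5 with 1 library left out. In met1-7 leaves it was 1 to 6 with 1 library left out. In elp2-5 roots it became 0 with the compared libraries alone and was 1 to 3 with 1 library left out, in Col-0 roots it became 1 with median-ratio scaling, and in met1-7 roots it was 0 to 1 with 1 library left out. In met1-7 against Col-0 GC leaves it became 1 with median-ratio scaling and 1 with a pseudocount of 1, and was 0 to 1 with 1 library left out. Left-out libraries gave 9 to 9 calls in elp2-5 against Col-0 in GC leaves, 10 to 10 in FT leaves and 2 to 4 in FT roots. The leaf counts include MYB12 and MYB11, which passed the filter only through elp2-5 libraries. The cause of these shifts was not tested.

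Same-numbered replicates correlated at -0.16 to 0.14 in their deviations from the group means, so the numbers do not pair the libraries, and not every library correlated best with its own number. With the number as a block, the counts between FT and GC were 1 in Col-0 leaves, 0 in elp2-5 leaves, 5 in met1-7 leaves and 2 in elp2-5 roots, with MYB111 lost in met1-7 leaves and FLS1 in elp2-5 roots, and 31 of 33 calls were kept. FPKM carry no read counts, so the counting error of low values such as those of MYB11 and MYB12 in leaves is unknown.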
